A study of Drosophila melanogaster with 3 samples.

Results

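The regions described here were autosomal promoter peaks of the Drosophila melanogaster factor Squeeze (sqz). Peaks close to both promoters of a divergent gene pair are not among them. A peak was taken from the authors' thresholded list if its summit lay on chromosome 2L, 2R, 3L, 3R or 4 and within 500 bp of a transcription start site (TSS) of a protein-coding gene. Summits within 500 bp of both TSSs of a divergent pair, in which a minus-strand TSS lies up to 1000 bp below the plus-strand TSS of another gene, were left out. The rule kept 1533 of the 6578 thresholded peaks, or 29.5% of the 5194 autosomal ones (95% Wilson interval 28.3 to 30.8), at 1189 genes. The other autosomal peaks comprised 405 at divergent promoters and 3256 over 500 bp from a TSS. Within the thresholded list the rule used position alone. The list itself holds the strongest peaks of the pooled libraries, so signal and agreement between libraries entered the choice of every thresholded peak, in this class and the others.

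The study mapped the factor by chromatin immunoprecipitation and sequencing (ChIP-seq) in undissected embryos of both sexes, collected from 0 to 16 h, of a transgenic line with a stably expressed sqz fusion that has GFP at its C terminus. The 3 biological replicates form a single group, and no other genotype or untagged embryo was analysed here, so peaks were compared with other peaks and with promoters that had none. The description field speaks of an input control, whereas the antibody label names sqz and the file headers name a separate control alignment. With whole embryos a summit can come from any cell type, and the labels do not say which promoter drove the fusion or whether the endogenous gene was intact.

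Squeeze is a Krüppel-type zinc finger factor known for its role in specifying Apterous cluster neurons of the ventral nerve cord. Its human relative ZNF384 is known to bind runs of A. Fly promoters are commonly divided by their short core words. The DNA replication-related element (DRE) and motif 1 mark many housekeeping promoters, which often lie head to head, whereas the TATA box, the initiator and sites of the GAGA factor mark many developmentally regulated ones. Ribosomal protein genes start transcription within a pyrimidine stretch in place of the usual initiator.

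The sequences around 8 member summits show the words that the results below turn on. Each is 201 bp of the Release 6 assembly used by dm6, centred on the summit and read 5′ to 3′ on the strand of the gene. Capitals mark an A run of at least 7 letters on either strand at sqz and CG14100, the GAGA factor word GAGAG or its complement at CG18549 and Pdk1, and the DRE word TATCGATA at eEF1gamma. They mark the motif 1 core GGTCACAC at Tm1, the TATA word TATAAA at Hsp83, and the CTTT at the start site of RpS4.
sqz (chr3R:19164077-19164277, plus strand): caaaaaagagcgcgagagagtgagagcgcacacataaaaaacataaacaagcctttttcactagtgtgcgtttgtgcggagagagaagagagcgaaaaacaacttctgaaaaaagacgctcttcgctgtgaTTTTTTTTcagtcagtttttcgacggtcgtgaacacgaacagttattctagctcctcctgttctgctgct
CG14100 (chr3L:19590510-19590710, minus strand): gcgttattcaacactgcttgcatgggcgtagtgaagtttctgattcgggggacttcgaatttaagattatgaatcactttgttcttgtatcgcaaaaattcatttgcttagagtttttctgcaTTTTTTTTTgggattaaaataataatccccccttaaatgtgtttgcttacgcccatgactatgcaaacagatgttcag
CG18549 (chr3R:12449068-12449268, plus strand): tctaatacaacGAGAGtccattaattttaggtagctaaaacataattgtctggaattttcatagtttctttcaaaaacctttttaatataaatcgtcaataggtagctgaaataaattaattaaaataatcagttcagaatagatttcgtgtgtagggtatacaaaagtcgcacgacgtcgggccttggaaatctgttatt
Pdk1 (chr3L:131521-131721, plus strand): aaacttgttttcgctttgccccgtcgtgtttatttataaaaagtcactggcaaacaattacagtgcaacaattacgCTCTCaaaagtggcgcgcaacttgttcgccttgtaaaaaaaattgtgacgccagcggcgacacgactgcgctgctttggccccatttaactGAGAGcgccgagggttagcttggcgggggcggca
eEF1gamma (chr3R:29220030-29220230, plus strand): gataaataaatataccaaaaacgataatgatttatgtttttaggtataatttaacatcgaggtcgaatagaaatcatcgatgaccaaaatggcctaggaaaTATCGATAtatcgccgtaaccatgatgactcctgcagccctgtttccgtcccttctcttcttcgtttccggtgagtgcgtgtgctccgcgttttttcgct
Tm1 (chr3R:15287918-15288118, plus strand): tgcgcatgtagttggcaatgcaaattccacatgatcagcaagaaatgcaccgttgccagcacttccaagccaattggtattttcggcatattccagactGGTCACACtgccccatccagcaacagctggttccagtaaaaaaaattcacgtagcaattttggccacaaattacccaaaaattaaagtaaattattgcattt
Hsp83 (chr3L:3193014-3193214, plus strand): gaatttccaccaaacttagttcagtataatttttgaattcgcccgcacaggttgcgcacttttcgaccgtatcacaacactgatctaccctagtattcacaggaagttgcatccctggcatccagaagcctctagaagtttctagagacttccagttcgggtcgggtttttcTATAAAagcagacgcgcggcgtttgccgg
RpS4 (chr3L:13041705-13041905, plus strand): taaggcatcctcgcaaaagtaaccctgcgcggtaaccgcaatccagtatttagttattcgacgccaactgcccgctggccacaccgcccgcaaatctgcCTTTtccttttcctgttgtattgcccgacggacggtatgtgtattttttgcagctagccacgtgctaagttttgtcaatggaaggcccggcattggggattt

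The sqz promoter carried the strongest peak of the whole thresholded list, and its A run of 8 letters is written as T on the coding strand across the TSS, which is base 135 of the window. CG14100, the member of second highest signal, held a run of 9. CG18549 had a GAGA factor word near the left edge of its window and no A run longer than 5 letters. Pdk1, a kinase gene of the insulin pathway, had a GAGA factor word on each strand and also a run of 8. In eEF1gamma, a translation elongation factor gene, the DRE lay beside the summit, 42 bp upstream of the TSS. The motif 1 core of Tm1, which encodes a tropomyosin, stood at the summit, 6 bp downstream of the TSS. Hsp83, the HSP90 chaperone gene, had its summit in a 5′ UTR, 102 bp upstream of an internal TSS, and its TATA word toward that TSS. The CTTT of RpS4 began within 5 bp of the annotated start, 4 bp from the summit.

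Replicate 1 stood apart from the others in the promoters it favoured. When the same rule was applied to the 6578 strongest peaks of each library, it gave 1654, 1500 and 1552 non-divergent promoter peaks in replicates 1, 2 and 3, and 669, 390 and 363 divergent ones. Divergent promoter peaks were thus most numerous in replicate 1, while the non-divergent ones were similar in number in the 3 libraries. Depth is unknown because reads per peak are not in the lists, and the Wilson intervals cover counting error only.

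Thresholded summits lay near a minority of the non-divergent TSSs, meaning those in no divergent pair. The TSS shares count any thresholded summit, not only members. A member can also lie at a TSS of a divergent pair if it is over 500 bp from the other TSS, as at CG9663 and CG3277. Neither TSS share is therefore that of members alone. Of 10922 autosomal non-divergent TSSs, 1421 had a thresholded summit within 500 bp, or 13.0% (12.4 to 13.7). The share was 14.1%, 12.5% and 13.0% in the lists of the strongest peaks of replicates 1, 2 and 3. Of 5056 TSSs in divergent pairs 21.7% had a thresholded summit (20.5 to 22.8), with 34.3%, 21.5% and 21.3% in the 3 libraries. The divergent share was higher in every library, by the widest margin in replicate 1. A summit within 500 bp of both TSSs of a pair counts for both. The definition thus bears on this contrast, and its part in it was not tested. Counted over genes, 10.1% of 11749 autosomal protein-coding genes had a member summit, from 9.70% on 3R to 12.5% of the 80 genes on chromosome 4. Counted over non-divergent TSSs, chromosome 4 was instead the lowest, at 10.5%, and 3L the highest, at 14.0%.

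Summits lay mostly on the upstream side but peaked in number at the start site itself. The median position was 62 bp upstream, with quartiles at 217 bp upstream and 62 bp downstream, and 936 of the 1533 summits were upstream (61.1%, 58.6 to 63.5). The fullest 25 bp stretch was the first one downstream of the TSS, with 100 summits or 6.52% of the members. Within 50, 100 and 250 bp of the TSS lay 21.5%, 36.6% and 69.7% of the members. By annotation 542 summits were in introns, 500 in 5′ UTRs, 464 between genes, 14 in coding exons and 13 in 3′ UTRs.

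**Figure D1:**
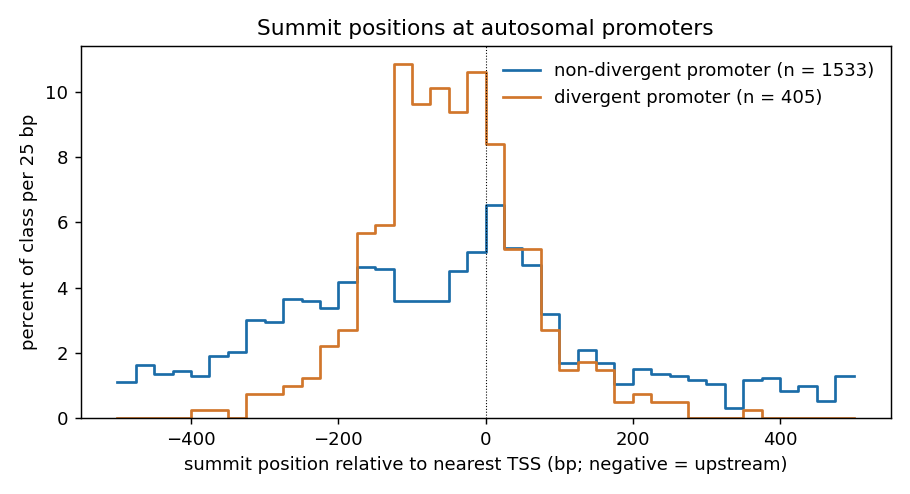
Position of the summit relative to the nearest TSS (x axis, bp, negative upstream) for the 1533 members and the 405 divergent promoter peaks, as percent of each class per 25 bp (y axis). Members spread over the whole window with their fullest bin just downstream of the TSS (6.52%), whereas divergent promoter summits crowd into the 125 bp upstream and the 75 bp downstream.

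Divergent promoter summits were closer to a TSS, as the plot of summit positions shows, and more often upstream, at 71.4% (66.8 to 75.5). Their spacing and side are partly set by the rule. A summit must lie within 500 bp of both TSSs, and a summit between the TSSs is upstream of both. In the strongest peaks of each library the upstream share of members was 61.9%, 61.3% and 60.1% in replicates 1, 2 and 3, against 74.1%, 71.8% and 70.2% for divergent promoter peaks. The mean difference, members minus divergent, was -11.0 percentage points and had the same sign in 3 of 3 libraries (exact paired permutation test, two-sided, p = 0.25, the smallest that 3 libraries allow). Because the rule bears on this contrast, the test cannot separate the rule's part in it.

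Few members had another gene's promoter close by, which the rule largely fixed for opposite strands by leaving out divergent pairs. No TSS of another gene lay within 500 bp of the summit for 1486 members (96.9%). A TSS of a neighbour on the same strand did for 42, and on the opposite strand for 5. The 5′ end of an annotated non-coding RNA gene lay within 500 bp for 75 members (4.89%). Of the 1368 TSSs that were nearest to a member, 44 had members on both sides.

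Member genes were longer than other genes and had more start sites. Their median length was 7497 bp, against 2102 bp for all autosomal protein-coding genes, and 57.4% had more than 1 TSS, against 25.7%. A gene with more TSSs offers more windows: 5.80% of genes with 1 TSS had a member, 16.1% with 2, 29.2% with 3 and 52% with 4 or more. Within the genes of several TSSs, 370 of 970 members (38.1%, 35.1 to 41.2) were nearest to the outermost 5′ start, which made up 682 of 2071 such TSSs (32.9%). Most member genes, 920 of 1189, had 1 member summit, and 269 (22.6%) had more.

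The genes with most member summits used several start sites. The cap'n'collar gene cnc, which encodes a bZIP factor of head development and oxidative stress response, had 6 summits with signals from 177.5 to 779.3. Diap1, the inhibitor of apoptosis, had 5, as did pyd, a tight junction scaffold gene, and Kank. For Diap1 the strongest summit (506.4) lay 46 bp upstream of an internal TSS and ranked 493 and 776 in replicates 2 and 3 but 5909 in replicate 1. The BTB factor gene psq had 4, of which the strongest, 178 bp upstream of an internal TSS, had a signal of 1298. That summit ranked 45 and 57 in replicates 2 and 3 and had no summit within 100 bp in replicate 1, whose nearest lay 193 bp away at rank 308. In all, 353 members lay under 500 bp from another member, so neighbouring summits need not be separate sites.

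The authors' signal value, whose scale is not stated, ran from 165.1 to 4852 among the members, and here serves only to rank peaks. The median member ranked 2878 of 6578, with quartiles at 1294 and 4663. Divergent promoter peaks ranked higher (median 2167) and peaks over 500 bp from a TSS lower (median 3624.5). In the libraries' own lists the median rank of members was 2974.5, 2844 and 2917 in replicates 1, 2 and 3. Members minus divergent promoter peaks gave 546.5 places on average (SD 91.7, n = 3), and members minus peaks far from a TSS gave -699.8 places (SD 63.3, n = 3), a larger number being a weaker peak. Both differences had the same sign in 3 of 3 libraries (exact paired permutation test, p = 0.25, the smallest possible).

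At the top stood sqz, with a summit 34 bp upstream of its TSS that had a signal of 4852 and ranked 4, 1 and 1 in replicates 1, 2 and 3. A further sqz summit in the same interval, 172 bp downstream in the 5′ UTR, had a signal of 1705 and ranked 106, 11 and 42. The line carries sqz also as the tagged construct, and the share of this signal that comes from its DNA was not tested. Next came CG14100, 86 bp upstream, with ranks 3, 6 and 9, and then larp, an RNA-binding protein gene, with a summit upstream of an internal TSS and ranks 9, 4 and 4. CG9663 ranked 3 and 6 in replicates 2 and 3, while the nearest summit of replicate 1, at rank 41, was a little over 100 bp away and so not matched. The other 19 of the 20 strongest members were met in all 3 libraries.

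**Figure D2:**
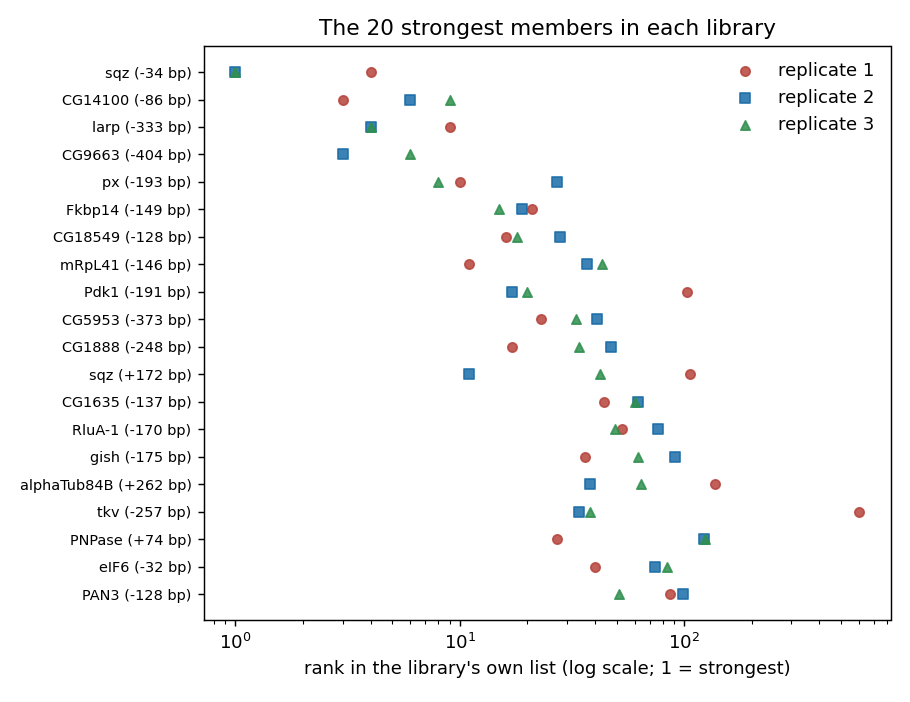
Rank of the 20 strongest members in each library's own list of 30000 peaks (x axis, log scale, 1 is the strongest), with the distance to the nearest TSS beside each gene. The strongest sqz summit ranks 4, 1 and 1; tkv ranked 602 in replicate 1 against 34 and 38, and CG9663 has no replicate 1 point.

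Among the 20 strongest, 17 summits were upstream of the TSS, none lay within 25 bp of it, and 12 windows held an A run. They served diverse genes. The list held Fkbp14, which encodes a peptidyl-prolyl isomerase, mRpL41 of the mitochondrial ribosome, gish, a casein kinase gene, alphaTub84B, the major alpha tubulin gene, and PAN3, part of a deadenylase. It also held eIF6, an initiation factor gene that acts in ribosome assembly, and PNPase, whose product degrades mitochondrial RNA. The BMP type I receptor gene tkv had its summit upstream of an internal TSS, with ranks 602, 34 and 38. The plot of ranks by library shows tkv as the entry with the widest spread among those met in all 3 libraries.

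At the weak end, the members of Tet, tai, CG7458, Msp300 and Hacd1 had signals from 165.1 to 166.0, at the end of the thresholded list. The Tet summit, 9 bp upstream of an internal TSS, ranked 2428, 20842 and 7289 in replicates 1, 2 and 3. At Msp300, a nesprin gene, the weak summit 331 bp downstream ranked 9012, 7612 and 6771 and so was in none of the 3 lists of strongest peaks. The 500 bp limit cut through a continuous range of positions. Just inside were summits of CG10734 (500 bp upstream, signal 178.4), snsl (499 bp downstream, 433.0) and sky (499 bp upstream, 166.4). Just outside were those of Oscillin (1 bp beyond the limit, 507.8), RhoGDI (504 bp, 633.9) and nmo (504 bp, 234.5).

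A member was called met in a library if a summit among its 6578 strongest peaks lay within 100 bp. That held for 71.8%, 80.1% and 79.6% of members in replicates 1, 2 and 3. The mean was 77.2% ± 4.69 (SD, n = 3). All 3 libraries met 787 members (51.3%, 48.8 to 53.8), and 32 (2.09%) were met in none. The share met in all 3 fell from 90.9% in the strongest quartile of members through 76.8% and 36.0% to 1.57% in the weakest. With the 30000 peaks of each library in place of the strongest, it was 80.0% over all members and 65.8% in the weakest quartile. The fall across quartiles is largely built in, since signal comes from the same 3 libraries pooled and a member near the end of the list has little room above the rank limit of each library.

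Divergent promoter peaks were met in 84.0%, 77.0% and 74.6% in replicates 1, 2 and 3, so the order was turned in replicate 1. The mean difference of -1.35 percentage points (SD 9.45, n = 3) was smaller than its spread over the libraries (exact paired permutation test, p = 1). Across members met in both lists, ranks correlated with a Spearman rho of 0.63 between replicates 1 and 2 (1299 summits), 0.64 between 1 and 3 (1302) and 0.77 between 2 and 3 (1347). These are descriptions over summits of the same libraries, which share 1 control alignment.

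The word that most set member summits apart from other promoters was the A run, AAAAAAA on either strand. It was found within 100 bp of 725 of 1533 summits (47.3%, 44.8 to 49.8). Centred on all non-divergent TSSs, a window of the same length held it in 16.1%, and at the 7739 such TSSs with no pooled peak within 500 bp in 14.0% (13.2 to 14.8). When the windows at those TSSs were placed at the members' own distances, the share was 14.2%. Non-divergent promoter peaks of the pooled list below the threshold, 2541 in number, had it in 27.8% (26.1 to 29.6). It was rarer at divergent promoter peaks (39.3%, 34.6 to 44.1) and more frequent at peaks over 500 bp from a TSS (58.3%, 56.6 to 59.9).

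The GAGA factor word GAGAG, the site of the chromatin protein encoded by Trl, was the second most frequent. It occurred at 594 members (38.7%, 36.3 to 41.2), against 28.2% of all non-divergent TSSs and 23.4% of those with no pooled peak. Divergent promoter peaks had it in 15.8% (12.6 to 19.7). Peaks over 500 bp from a TSS had it in 28.9%, and non-divergent promoter peaks below the threshold in 31.8%. The CA repeat CACACAC was in 13.8% of members and 6.66% of all non-divergent TSSs. The TATA word TATAAA, whose last letters can be part of an A run, was in 26.6% of members, close to the 27.8% of all non-divergent TSSs.

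**Figure D3:**
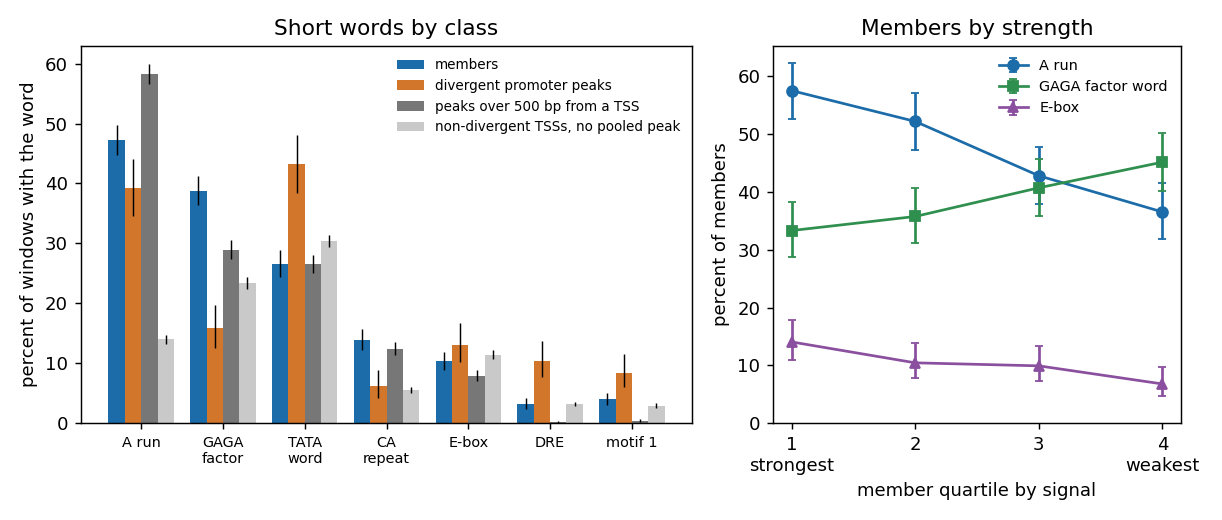
Left, percent of 201 bp windows (y axis) that hold each word in members, divergent promoter peaks, peaks over 500 bp from a TSS and non-divergent TSSs with no pooled peak; right, percent of members with 3 of the words by quartile of signal. Bars and points carry 95% Wilson intervals; the A run falls from 57.6% to 36.6% from the strongest to the weakest quartile while the GAGA factor word goes from 33.3% to 45.2%.

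The housekeeping words were rarer at members than at divergent promoter peaks and more frequent than at promoters with no peak. The DRE was found at 49 members (3.20%, 2.43 to 4.20) and the motif 1 core at 61 (3.98%, 3.11 to 5.08), whereas divergent promoter peaks held them in 10.4% and 8.40%. At TSSs with no pooled peak, windows placed at the members' distances held the DRE in 1.90% and the motif 1 core in 1.54%. In windows centred on the TSS the shares were 4.86% and 6.05% at non-divergent TSSs with a thresholded peak, against 3.18% and 2.93% at those with no pooled peak. The E-box CAGCTG was in 10.3% of members and 11.8% of all non-divergent TSSs. At TSSs with no pooled peak, windows at the members' distances held the E-box in 9.77%. The word CAGGTAG of the early embryonic activator Zelda was in 1.11%, near the 1.19% of all non-divergent TSSs.

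The contrasts with divergent promoter peaks recurred in the strongest peaks of each library. The GAGA factor word was in 33.4%, 37.6% and 39.2% of non-divergent promoter peaks in replicates 1, 2 and 3, and in 13.5%, 19.0% and 16.0% of divergent ones. The mean difference was 20.6 percentage points (SD 2.38, n = 3). For the A run the shares were 40.9%, 50.1% and 47.6%, against 33.0%, 42.8% and 38.0%, a mean difference of 8.23 points (SD 1.16). The difference was -6.25 points for the DRE (SD 0.419), -4.85 points for the motif 1 core (SD 0.893) and -12.9 points for the TATA word (SD 1.15), all lower at non-divergent promoters. The groups did not overlap over the libraries for the GAGA factor word, the DRE, the motif 1 core and the TATA word, whereas for the A run they did. Each of these 5 differences had the same sign in 3 of 3 libraries (exact paired permutation tests, two-sided, p = 0.25 each, the smallest possible).

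Base composition differed as well. The windows of members had a mean GC content of 40.4%, those of divergent promoter peaks 34.9% and those of non-divergent TSSs with no pooled peak 42.0%. Members were therefore split by GC content into 3 groups of 511. The A run was in 45.8%, 49.9% and 46.2% of members from the lowest group to the highest, while at TSSs with no pooled peak and the same range of GC it was in 27.1%, 12.7% and 5.46%. The GAGA factor word followed GC in both sets: it was in 24.9%, 35.0% and 56.4% of members and in 14.1%, 20.1% and 32.5% of the TSSs. In each group both words were more frequent at members.

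Strong and weak members differed in their words. The A run was in 57.6%, 52.2%, 42.8% and 36.6% of the members from the strongest quartile to the weakest, and the GAGA factor word in 33.3%, 35.8%, 40.7% and 45.2%. The panel of words by quartile shows the A run still above the GAGA factor word in quartile 3 and below it in quartile 4. The E-box went the same way as the A run, from 14.1% to 6.79%. The 463 members with an A run and no GAGA factor word had a median rank of 2192, the 262 with both 2539.5, the 476 with neither 3192 and the 332 with the GAGA factor word alone 3515. Signal and presence of the A run correlated with a rho of 0.17 over the 1533 members, so the word orders them only loosely.

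**Figure D4:**
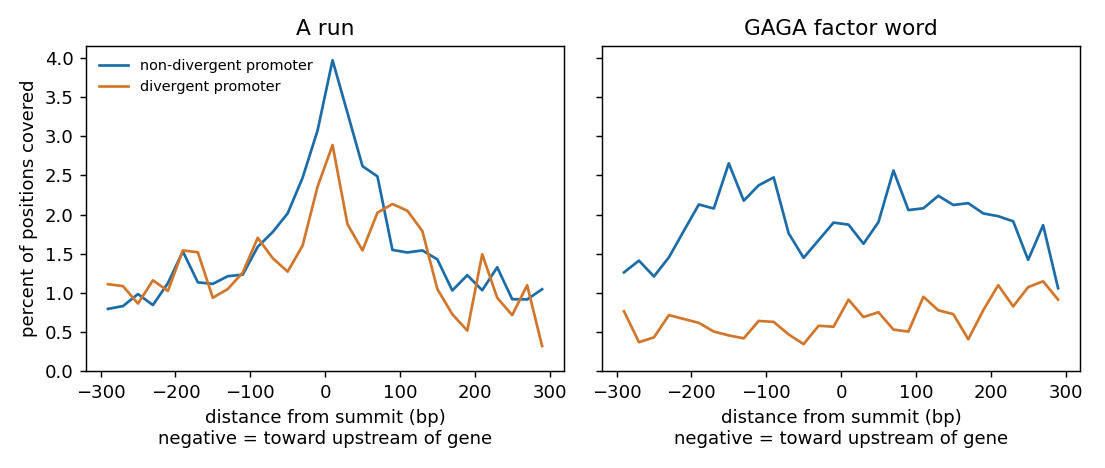
Percent of positions covered by the A run (left) and the GAGA factor word (right), y axis, in bins of 20 bp by distance from the summit (x axis, negative toward the upstream side of the gene) for members and divergent promoter peaks. The A run peaks at the member summit at 3.97%, whereas the GAGA factor word is highest away from it, with 2.65% in the bin that starts 160 bp upstream.

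Where a word stood relative to the summit differed between them. The A run covered 3.97% of positions in the 20 bp just downstream of the summit. In the outer bins, those that start 260 bp or more from the summit, it covered 0.915% on average. The GAGA factor word covered at most 2.65%, in the bin that starts 160 bp upstream, and 1.36% on average in the outer bins. In the plot of word coverage it forms a broad plateau with a dip around the summit, while the A run forms a single peak. Of the members with the word within 300 bp, the median distance from the summit was 56 bp for the A run (1090 members) and 92 bp for the GAGA factor word (1121).

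Members upstream and downstream of the TSS held different words. The 592 downstream ones had the A run in 53.2% and the TATA word in 17.2%, and the 936 upstream ones in 43.5% and 32.6%. The CA repeat was in 18.9% downstream and 10.7% upstream. The upstream summits were also lower in GC content, with a median of 38.3% against 43.3%.

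At the start sites themselves, words were sought at their fixed positions on the strand of the gene. A TATA box 40 to 20 bp upstream was found at 53 of the 1421 non-divergent TSSs with a thresholded peak (3.73%, 2.86 to 4.85) and at 9.36% of those with no pooled peak. The initiator TCAGT, within 5 bp of the TSS, was at 18.9% (17.0 to 21.0), against 12.4% (11.7 to 13.2). At divergent TSSs with a thresholded peak the initiator was at 5.02%. Non-divergent start sites with a peak thus held fewer TATA boxes and more initiators than those without any pooled peak.

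The gene lists were chosen with earlier results of these data known and are described by counts beside the background of 10.1% of autosomal genes. Because genes with more TSSs had more members, the share of all genes with the same TSS numbers is given as well. Of the 27 lists, 16 had an interval wholly above the background and 3 wholly below it, and 13 were wholly above the share for the same TSS numbers. The chaperone, nuclear receptor and muscle intervals were above the background but not wholly above that share. The lists overlap, so these counts are not independent. For instance, tin is in the homeobox, muscle and gut lists, and sqz in the zinc finger and Apterous cluster lists. Where a list's share moved by over 1.5 times without a replicate, that value is given too. It counts only summits met in both of the other libraries, a restriction that took the background to between 6.62% and 7.29%.

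**Figure D5:**
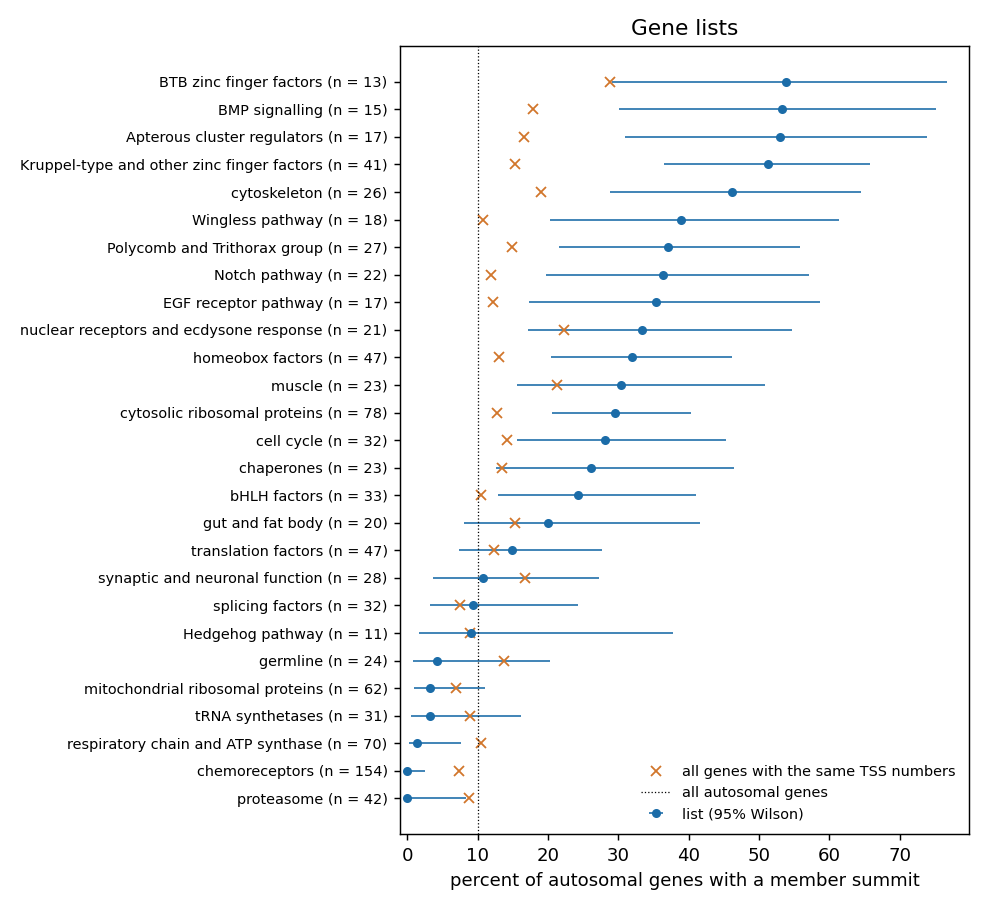
Percent of the autosomal genes of each list with a member summit (x axis; points with 95% Wilson intervals), the share of all autosomal genes with the same TSS numbers (crosses) and the background of 10.1% (dotted line). Transcription factor and BMP lists sit at 24.2% to 53.8%, and the chemoreceptor and proteasome lists at 0.

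Transcription factor genes held members often. BTB zinc finger genes had a member in 7 of 13 (53.8%, against 28.7% for the same TSS numbers). Their strongest were psq, ken, a repressor gene, and rib, a regulator of tracheal and salivary gland form, with ken and rib at 900.2 and 828.1. Other zinc finger genes had a member in 21 of 41 (51.2%, against 15.3%). Besides sqz itself they held zfh2 (877.2, 9 bp downstream) and pnr, a GATA factor gene (783.9). Of the 21 strongest summits of these genes 17 held the GAGA factor word. Homeobox genes had a member in 15 of 47 (31.9%, against 13.0%), led by cad (723.9), vvl (613.8) and tin (499.6), which pattern the posterior body, the trachea and the heart. The BTB share was 30.8% without replicate 1 or 3 and that of the other zinc finger genes 34.1% without replicate 3.

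Basic helix-loop-helix genes had a member in 8 of 33 (24.2%, against 10.5%), led by 3 Notch-responsive repressor genes of the Enhancer of split complex. E(spl)mbeta-HLH had a summit 163 bp upstream with ranks 311, 145 and 87 in replicates 1, 2 and 3. Nuclear receptor and ecdysone response genes had a member in 7 of 21 (33.3%, against 22.3%), with E23, an ABC transporter gene, and Eip75B as the strongest. Polycomb and Trithorax group genes had a member in 10 of 27 (37.0%, against 14.9%), among them Asx, tara and the chromatin remodeller subunit gene mor. Without replicate 3 the share of the last list was 22.2%. Among its genes with 1 TSS the share was 14.3% (4.01 to 39.9), against 5.80% of all genes with 1 TSS.

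The BMP, Notch, EGF receptor and Wingless genes also stood above the background, and the Hedgehog list was too small to place. BMP pathway genes had a member in 8 of 15 (53.3%, against 17.8%): the receptor genes tkv (1392) and wit (269.6), shn, which encodes a zinc finger partner of the Smads (570.4), and cv-2, which encodes an extracellular BMP-binding protein (314.7), gave the strongest summits. Notch pathway genes had a member in 8 of 22 (36.4%, against 11.9%). These included kuz, the protease that cleaves the receptor (1332), neur, a ubiquitin ligase that acts on the ligand (924.8), and gro, a corepressor (572.3). EGF receptor genes had a member in 6 of 17 (35.3%, against 12.2%), led by the ligand gene spi (1174), the repressor gene aop (712.1) and the inhibitor gene aos (412.7). Wingless genes had a member in 7 of 18 (38.9%, against 10.8%), with the nuclear effector genes pan (1336.5) and lgs (377.3) first. Hedgehog genes had a member in 1 of 11, ci (9.09%, 1.62 to 37.7, against 8.86%). That interval overlaps those of the other pathways. Without any 1 of the replicates the BMP share was 33.3%, and the Notch share was 22.7% without replicate 2 or 3. The Wingless share was 22.2% without replicate 2, and no Hedgehog gene had a member without replicate 1 or 2.

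The regulators of the Apterous cluster, the neurons in which sqz is best known, had a member in 9 of 17 (52.9%, against 16.6%). This count includes sqz itself. After it came dac (1083.5, 474 bp upstream; ranks 180, 119 and 175), eya (481.9) and cas (472.7). Of the 9 strongest summits, 8 held an A run. The share was 29.4% with a TSS window of 250 bp and also 29.4% for summits met in all 3 libraries; it was 35.3% without any 1 of the replicates. Genes of synaptic function had a member in 3 of 28 (10.7%, against 16.8%), and the strongest, at Syx1A, had a signal of 367.3; the share was 3.57% without any 1 of the replicates. Muscle genes had 7 of 23 (30.4%, against 21.3%), or 17.4% without replicate 2. Gut and fat body genes had 4 of 20 (20%, against 15.3%) and germline genes 1 of 24 (4.17%, against 13.7%).

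Cytosolic ribosomal protein genes differed from the other lists in where their summits lay and in their words. They had a member in 23 of 78 (29.5%, 20.5 to 40.4, against 12.7%). A divergent promoter peak was found at 21 genes of the list, and the overlap of these with the 23 was not counted. Taking the strongest member of each gene, the median distance from the TSS was 11 bp, against 158 bp over all members. The motif 1 core was at 7 of these 23 summits, the DRE at 6 and the A run at 3. RpL11 had a summit 12 bp downstream with a signal of 746.8 and ranks of 627, 375 and 339 in replicates 1, 2 and 3. RpS4, whose sequence is shown above, had 670.0 and ranks of 268, 671 and 697. RpL24 was 5 bp downstream with 651.8. Of the 25 ribosomal protein TSSs with a thresholded peak, 10 started at CTTT (40%, 23.4 to 59.3), against 7.04% of all non-divergent TSSs with one. None of the 25 had a TATA box or the initiator, which allows a share of up to 12%.

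Few or no members lay at the genes of several other basic machines or at chemoreceptor genes. Summits at divergent pairs are not members, so the rule bears on these shares. A divergent promoter peak was found at 1 respiratory chain, 2 mitochondrial ribosomal protein, 3 tRNA synthetase, 3 translation factor and 4 splicing factor genes. It was found at no proteasome, chemoreceptor, BTB zinc finger, other zinc finger or homeobox gene. None of 42 proteasome genes had a member, which allows a share of up to 7.14% (8.81% for the same TSS numbers). None of 154 chemoreceptor genes had a member either, which allows up to 1.95% (against 7.33%). Respiratory chain genes had a member in 1 of 70 (1.43%, against 10.5%), a summit near the end of the list at ND-13A (172.2). Mitochondrial ribosomal protein genes had 2 of 62 (3.23%, 0.889 to 11.0, against 6.85%), mRpL41 (1794) and mRpL19 (272.4). The tRNA synthetase genes had 1 of 31 (3.23%, 0.572 to 16.2, against 8.88%). Both intervals include the background of 10.1%. Translation factors were nearer the background, with 7 of 47 (14.9%, against 12.3%), led by eIF6 (1382), eEF1gamma (925.2) and eIF4A (392.6). Splicing factor genes had 3 of 32 (9.38%, against 7.41%), led by SmF. Restricting the list to summits met in both other libraries left respiratory chain and tRNA synthetase genes with no member whichever replicate was left out, and mitochondrial ribosomal protein genes at 1.61% without replicate 2 or 3.

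Structural, stress and cell cycle genes had shares above the background. Cytoskeleton genes had a member in 12 of 26 (46.2%, against 19.0%). The alphaTub84B summit lay 262 bp downstream and ranked 137, 38 and 64 in replicates 1, 2 and 3, ahead of zip, a non-muscle myosin heavy chain gene (637.0), and Tm1 (615.0). Chaperone genes had a member in 6 of 23 (26.1%, 12.5 to 46.5, against 13.4%). They were led by Hsp110 (1070), Hsp83 (1016) and the small heat shock gene Hsp27 (684.9). Of the 6 strongest chaperone summits 4 held the TATA word. Cell cycle genes had 9 of 32 (28.1%, against 14.2%). At E2f1, which encodes the S-phase activator, the summit 60 bp upstream ranked 277 and 214 in replicates 2 and 3 and 7360 in replicate 1. CycE and Dp followed, with signals of 786.5 and 581.8. Without replicate 2 the cytoskeleton share was 26.9%, and without replicate 1 or 3 the chaperone share was 17.4%. Among genes with 1 TSS the shares were 14.3% for the cytoskeleton (4.01 to 39.9) and 15.4% for chaperones (4.33 to 42.2). For cell cycle genes with 1 TSS the share was 16.7% (5.84 to 39.2). Of all genes with 1 TSS 5.80% had a member, which the cytoskeleton and chaperone intervals include.

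The small chromosome 4, which is largely heterochromatic in character, held 12 members at 10 genes. The strongest, at pan, lay 35 bp downstream (1336.5) and ranked 217, 59 and 52 in replicates 1, 2 and 3. Next was zfh2 (877.2; ranks 536, 231 and 191). A weaker pan summit (316.0), CaMKI (429.8), lgs and RpS3A (337.2) were also met in all 3 libraries. The summits of Actbeta, an activin ligand gene (261.6), ci (233.6), PlexB, a semaphorin receptor gene (199.5), and anne (183.9) were met in 2. Sox102F had 2 summits, of which the stronger (282.0) had no replicate 3 summit within 100 bp. Of the 12, 7 held an A run and 3 the GAGA factor word, and 7 lay within 100 bp of the TSS.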

How the data were processed

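ChIP-seq peak lists of 3 sqz-GFP embryo libraries were analysed, fragments being sonicated to 200 to 800 bp per the labels. Peaks were called by the authors on dm6, per the file headers, for each library and for the pool against 1 shared control alignment (30000 peaks each), and a thresholded list was derived by the irreproducible discovery rate. Neither aligner, caller nor threshold is given in the sources. The deposited signal is a score of unstated scale; all 6578 thresholded peaks were the strongest of the pooled list, so it was used for ranks. No read counts are given, so depth is unknown.

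TSSs came from Ensembl release 115 (BDGP 6.54) and sequence from the Release 6 assembly. Python 3.11.15, pandas 2.3.3, numpy 2.4.6 and SciPy 1.17.1 were used. Words on either strand were counted up to 100 bp from the summit. Classification and word search were tested on simulated data. Libraries were compared by exact paired permutation tests (sign flips over 3 libraries); shares carry 95% Wilson intervals, and a count of 0 was given a limit of 3 counts in the total.

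Members and lists were chosen with earlier results of these data known, and misplaced genes (side and sens-2, jim, eya) were taken out of the bHLH, BTB and homeobox lists after the files had been seen. Named genes were the nearest genes of the 20 strongest and 5 weakest members, those at the 500 bp limit, the 5 genes with most members, all on chromosome 4, and up to 3 per list with the strongest member; the fourth of a list (wit, cas) and all members of short lists (mRpL19) were added after their values were seen.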

Additional observations from a re-analysis of the deposited data

How the results depend on the processing

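Results are given as the alternative's value, each change made alone. With a TSS window of 250 bp members were 23.7% of autosomal summits, their median position was -32 bp, and 9.13% of genes and 8.97% of non-divergent promoters had a summit. With 1000 bp these were 34.5%, -73 bp, 10.7% and 16.9%, the median rank was 3033 and the ribosomal protein share 19.2%, since more of these promoters then count as divergent. A divergent gap of 500 bp gave a median of -67 bp and 13.7% of promoters. A gap of 2000 bp left the members as they were, because a summit cannot be within 500 bp of both TSSs of a wider pair. Merged summits were 26.2% of autosomal ones, with a median rank of 2676.

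The 3289 strongest thresholded peaks held 861 members (33.4% of autosomal summits, 64.1% upstream, median -74 bp), at 6.25% of genes, 7.64% of promoters and 20.5% of ribosomal protein genes. Their A run share was 54.2% and their GAGA factor share 35.4%. The 787 members met in all 3 libraries were 31.7% of autosomal summits, 64.3% upstream, with a median of -69 bp, at 5.86% of genes and 7.28% of promoters. They had the A run in 53.9% and the GAGA factor word in 35.6%.

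When the thresholded summits were restricted to those met in both other libraries, leaving out each replicate in turn, members numbered 900 to 1016. They were 29.9% to 31.5% of autosomal summits, 62.1% to 64.3% upstream, with medians of -74 to -59.5 bp, at 6.62% to 7.29% of genes, 8.30% to 9.05% of promoters and 23.1% of ribosomal protein genes. The A run was in 50.8% to 53.7% and the GAGA factor word in 35.3% to 37.2%. The pooled list behind these summits still holds all 3 libraries.

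The share met in all 3 libraries was 34.7% with a match distance of 50 bp, 61.3% with 200 bp and 80.0% with full lists. With 50 bp on each side the A run was in 32.2% and the GAGA factor word in 21.5%, and with 200 bp in 62.8% and 61.4%. Among genes with 1 TSS 5.80% had a member, and 13 lists had an interval above that share. The cytoskeleton, chaperone and Polycomb and Trithorax lists were not among the 13. The restriction to genes with 1 TSS, the GC groups and the windows at the members' distances were chosen after seeing the data. In all settings tried the median position stayed upstream and most members were upstream of the TSS, and 18 to 20 of the 27 lists were above the background. Of the results on single lists and words outside those above, 250 stayed inside the interval of the reported value and 58 moved out of it. No paired analysis was possible because there was 1 group of samples and thus no second group to pair by replicate number; peak classes were compared within each library. Unknown depth limits how far a missing peak can be read.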
